A study of Mus musculus with 30 samples.

Results

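The 10 genes described here are Zfas1, Gas5, Snhg1, Snhg3, Snhg5, Snhg6, Snhg8, Snhg12, Snhg15 and Snhg17. They are long non-coding RNA genes whose annotated spans hold genes of small nucleolar RNAs (snoRNAs). They were chosen by name, as the rows of a read count table of 57186 genes whose Ensembl identifiers, without the version number, belong to these symbols, and all 10 were found. The table holds 30 RNA-seq libraries from NIH/3T3 mouse fibroblasts and CGR8 mouse embryonic stem cells. Both lines carry an insertion at the ROSA26 locus that the labels name an SLT knock-in, so no unmodified line was compared. Cells received cycloheximide at 0.1 µg/mL for 0, 1, 2, 5 or 48 h, with 3 replicates, lettered A to C, for each line and time. The stem cells were kept in a serum-free 2i/LIF medium and the fibroblasts in medium with serum, so line and medium cannot be told apart. The labels do not say whether replicates were separate cultures, so p-values measure the spread between these libraries, which may be technical. Each library held 18216993 to 30503109 counts, and levels are given as CPM, counts scaled to a common library size, after scaling by edgeR's TMM method, which adjusts for differences in library composition. No amount of RNA per cell was measured, so each level is a share of the library.

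A snoRNA host gene is transcribed as a long precursor. The introns release snoRNAs, which guide chemical modification of ribosomal and other RNAs, while the spliced exons form an RNA with short open reading frames that end far upstream of the last exon junction. Ribosomes that stop at such a place mark a transcript for nonsense-mediated decay, which needs ongoing translation. Cycloheximide can stop translation by blocking elongating ribosomes. Translation was not measured, so how far it was stopped at the dose and times used is not known. Some host genes, Gas5 among them, also begin with a pyrimidine tract of the kind found in ribosomal protein mRNAs, whose translation follows growth signals. The decay rate itself was not measured, since the libraries give levels over time, and these levels did not place all 10 genes in one class: Snhg5 was never called higher and Snhg3 was too low to follow.

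In the GENCODE M21 annotation of GRCm38 the 10 genes share a small, spliced and multi-exon build. Their chosen transcripts, 1 per gene, had 2 to 12 exons and 448 to 1553 spliced bases, with a median of 605.5. Introns of these transcripts held every snoRNA gene of the span except in Snhg15 (0 of 1) and Snhg3 (1 of 2). Gas5, a gene first known for accumulating in growth-arrested cells, had 12 exons in 502 bases, and the reading frame from its first ATG covered 23 codons with 7 exon junctions more than 50 bases behind its stop. Zfas1, which starts beside and opposite the gene Znfx1, had 17 codons and 4 such junctions, and Snhg1 had 40 codons and 5 junctions. All 10 had at least 1 such junction after the frame of the first ATG, as did 89.11% of 5328 other annotated long non-coding genes with at least 3 exons. After the longest frame in the transcript the share was 5 of 10, against 29.09% of those genes. The 10 include Snhg3 and Snhg15, which have 2 exons each and would not meet the minimum of 3. All these values are properties of the annotation, and no ribosome footprints were measured.

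The bases around the annotated start are shown because the start of the RNA is where the pyrimidine tract of a host gene lies. They come from RefSeq on GRCm38.p6, where 9 of the 10 genes were matched, and each runs 5′ to 3′ on the gene's strand from 50 bases before the annotated start to 50 after it. Capitals mark the longest run of C and T that begins with C in this window.
Gas5, chr1:161035116-161035215, plus strand: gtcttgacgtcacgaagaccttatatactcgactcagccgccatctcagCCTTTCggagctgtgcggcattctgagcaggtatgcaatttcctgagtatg
Snhg12, chr4:132308628-132308727, plus strand: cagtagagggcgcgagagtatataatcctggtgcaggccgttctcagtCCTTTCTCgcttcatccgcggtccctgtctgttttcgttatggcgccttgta
Snhg8, chr3:123508287-123508386, minus strand: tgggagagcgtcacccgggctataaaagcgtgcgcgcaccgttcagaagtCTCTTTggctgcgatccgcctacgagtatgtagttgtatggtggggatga
Snhg5, chr9:88522848-88522947, minus strand: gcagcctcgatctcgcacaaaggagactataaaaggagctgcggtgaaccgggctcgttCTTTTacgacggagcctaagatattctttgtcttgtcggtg
Snhg1, chr19:8723437-8723536, plus strand: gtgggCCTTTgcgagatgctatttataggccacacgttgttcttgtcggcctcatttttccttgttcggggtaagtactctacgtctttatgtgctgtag
Zfas1, chr2:167062884-167062983, plus strand: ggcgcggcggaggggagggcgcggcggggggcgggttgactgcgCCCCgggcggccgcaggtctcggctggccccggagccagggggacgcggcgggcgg
In Gas5, at the later of its annotated starts, and in Snhg12 and Snhg8 the run lay at the start itself. A run of at least 5 such bases beginning within 5 bases of a start was present in 4 of the 9 genes, the fourth being Snhg3, and in 18.635% of 27025 genes of the table; this feature was chosen after the sequences were seen. A run of at least 8 anywhere within 50 bases was present in 1 of 9 genes, Snhg12, and in 31.989% of all genes. In the longer window from 250 bases before to 50 after the start, TATAAA on either strand was present in 4 of 9 genes (Snhg1, Snhg3, Snhg5 and Snhg8) and in 15.667% of all. The palindrome CACGTG was present in 1 of 9, Snhg15, and in 8.093% of all, and CTTTC on the gene's strand within 50 bases of the start in 2 of 9, Gas5 and Snhg12, and in 14.557%. A match describes letters only, and an annotated start can lie some bases from the one a cell uses.

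Among the libraries, 5 were found to stand apart, and they bear on nearly all of these genes. In NIH/3T3 1 h C, NIH/3T3 2 h A, CGR8 0 h B, CGR8 2 h A and CGR8 5 h B the summed CPM of Malat1 and Neat1, long RNAs kept in the nucleus, was 0.216 to 0.438 times the mean of the other 2 replicates of the group. The lowest such ratio among the other 25 libraries was 0.619. The replicates in these ratios include libraries that stand apart themselves. CGR8 5 h A had a ratio of 0.636 to a mean that includes CGR8 5 h B. Its Malat1 was at 16.1 CPM, near the 14.4 of B and far under the 40.7 of C. Its Neat1 was at 5.64 CPM, against 2.01 in B and 7.51 in C. A ratio to C alone was not taken, and library A was kept. The host genes were low in the same 5 libraries. The rule used only Malat1 and Neat1, but it was set after the data had been seen. Zfas1 stood at 0.109 to 0.428 times its replicates, Snhg1 at 0.197 to 0.413, Snhg12 at 0.215 to 0.288 and Gas5 at 0.532 to 0.800. Of the 9 genes with measurable levels, 8 were under their replicates in each of these libraries and all 9 were in CGR8 5 h B. Snhg8, the host of the H/ACA snoRNA Snora24, was the exception, at 0.941 to 1.35 times its replicates. Ribosomal protein mRNAs, summed, stood at 1.01 to 1.60 times their replicates and mitochondrial mRNAs at 0.582 to 1.17. The cause of the low values was not tested. Each result below is given with all libraries and without these 5, a choice made after seeing the data, which leaves 2 replicates in 5 groups. In the tests below, the libraries of a model share an estimate of spread. Leaving out the 5 thus also made standard errors and p-values smaller in comparisons that hold none of them, such as NIH/3T3 5 h against 0 h. Those p-values rest on a spread trimmed after seeing the data and can be too small.

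**Figure D1:**
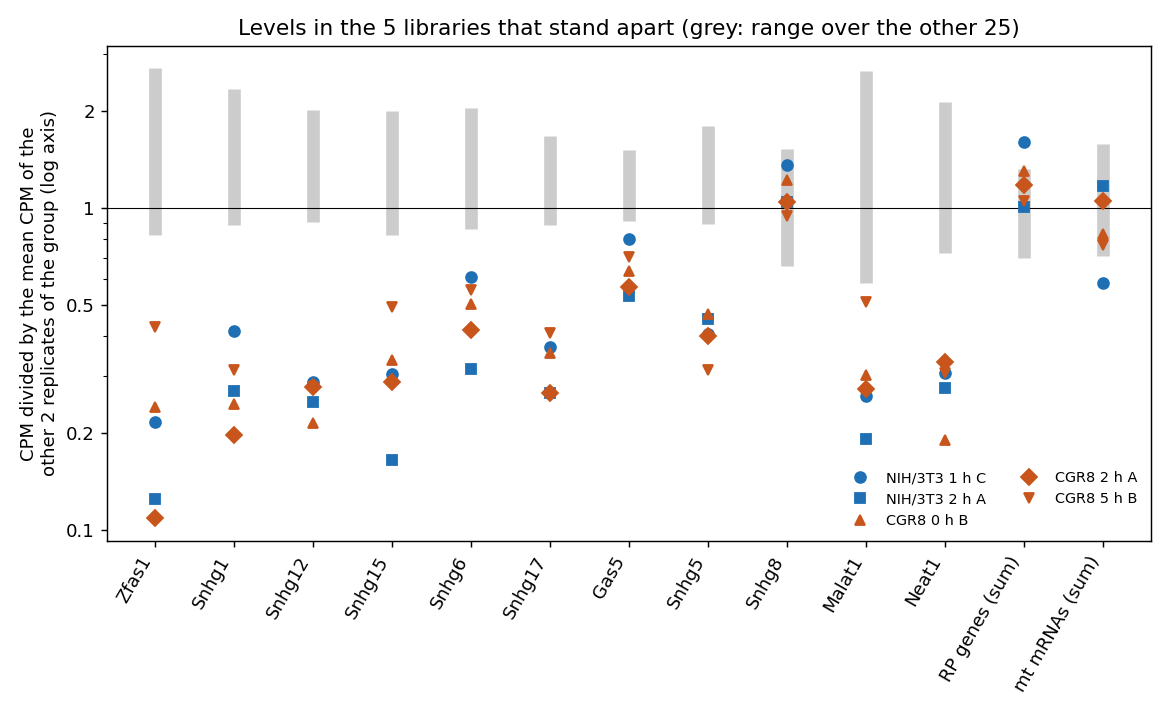
CPM in each of the 5 libraries that stand apart divided by the mean CPM of the other 2 replicates of its group (log axis), for 9 host genes, Malat1, Neat1 and the summed ribosomal protein (RP) genes and mitochondrial (mt) mRNAs; grey bars span the other 25 libraries. Zfas1 falls to 0.109 of its replicates while Snhg8 stays between 0.941 and 1.35.

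The labelled cell types were borne out by their markers. Col1a1, a fibroblast collagen, was at 1596 to 4760 CPM in NIH/3T3 and at 0.215 to 0.727 in CGR8, and Pou5f1, the stem cell factor Oct4, was at 548 to 1297 CPM in CGR8 and at 0 to 0.0930 in NIH/3T3. Fn1 and Vim, the other fibroblast genes examined besides Col1a2, Col3a1 and Lox, were present in both lines.

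Per kilobase of spliced transcript, Gas5 was the most abundant of the genes in untreated cells of both lines. At 0 h it stood at 478 ± 18.5 CPM per kb (SD, n = 3) in NIH/3T3 and at 358 ± 14.8 (SD, n = 2, without CGR8 0 h B) in CGR8. Snhg1, the host of Snord22 and its neighbours, came next at 160.3 ± 4.23 and 170.2 ± 12.5 CPM per kb. In NIH/3T3 the order went on with Snhg8 at 67.8 ± 4.81, Zfas1 at 58.4 ± 6.87, Snhg6 at 55.7 ± 1.64 and Snhg5 at 35.7 ± 2.49 CPM per kb. Zfas1 and Snhg6 lay within 1 SD of each other there, as did the last group, Snhg12 (25.9 ± 1.32), Snhg17 (25.7 ± 0.811) and Snhg15 (25.4 ± 1.86). In CGR8, Snhg5, the host of the U50 snoRNAs, moved up to the third place at 92.4 ± 8.81 CPM per kb. It was followed by Zfas1 (68.0 ± 0.529) and Snhg6 (64.3 ± 2.32), then by Snhg12 (49.97 ± 5.16), and by Snhg15 (36.6 ± 1.62), Snhg8 (31.9 ± 2.78) and Snhg17 (29.5 ± 1.72), of which the last 2 lay within 1 SD of each other. Snhg3, the host of the U17 snoRNAs, had very low counts in both, at 0.358 ± 0.0991 and 1.03 ± 0.338 CPM per kb. It overlaps Rcc1 on the same strand, so this level depends on how shared reads were assigned. Counts cover a whole gene while the length is that of 1 chosen transcript, so the order depends on that choice. Gas5 has 25 annotated transcripts and Snhg1 has 18. The CPM were scaled by TMM within each line, so levels of the 2 lines do not share 1 scaling.

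Zfas1 and Gas5 were called higher after 5 h of cycloheximide in both lines, and the number of other host genes called depended on the 5 libraries that stand apart. Changes were tested with edgeR's quasi-likelihood test over all genes that passed a count filter, and a gene was called at a Benjamini-Hochberg adjusted p under 0.05. Every time was compared with the same 0 h libraries, so the comparisons within a line are not independent. With all libraries, 9 of the 10 genes could be tested in NIH/3T3 and 10 in CGR8, Snhg3 being the one left out by the filter.

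At 1 h, 0 genes were called in either line, while 0.732% of all genes tested were called in NIH/3T3 and 0.27% in CGR8. Among the host genes 0 had an unadjusted p under 0.05 in either line, and DESeq2 called 0 as well. On the other 25 libraries, Zfas1 (log2 fold change 0.54 ± 0.08, SE), Snhg1 (0.41 ± 0.06) and Snhg12 (0.38 ± 0.08) rose in NIH/3T3, beside 9.89% of all genes called higher, and 0 of 10 were called in CGR8, where 0.178% of all genes were and 3 host genes had an unadjusted p under 0.05; there DESeq2 called 0.

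At 2 h in NIH/3T3, 2 of 9 genes were called, Snhg1 higher and Snhg5 lower, against 35% of all genes called in either direction. In CGR8 0 of 10 were called by edgeR and by DESeq2, against 19.9% of all genes, and 3 (Zfas1, Gas5 and Snhg8) had an unadjusted p under 0.05. With those 5 left out, 7 of 9 rose and 1, Snhg5, fell in NIH/3T3, where 26.7% of all genes were called higher and 27.3% lower. In CGR8 4 of 10 rose (Zfas1, Snhg1, Snhg15 and Gas5) and Snhg5 fell, where 7.45% of all genes were called higher and 10.5% lower.

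At 5 h, 4 of 9 genes rose in NIH/3T3, namely Zfas1, Snhg1, Snhg12 and Gas5, and 0 fell, where 24% of all genes were called higher and 27.1% lower. In CGR8 3 of 10 rose, namely Zfas1, Gas5 and Snhg8, and 0 fell, where 24.9% of all genes were called higher and 27.2% lower. On the 25 libraries the counts were 7 of 9 higher in NIH/3T3 (31.6% of all genes) and 7 of 10 higher with 1 lower in CGR8 (24.4% and 26% of all genes). The median log2 fold change of the tested host genes at 5 h was 0.58 in NIH/3T3 and 0.75 in CGR8 with all libraries, and 0.59 and 0.70 without the 5, where the median of all genes was -0.01 with all libraries in both lines.

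At 48 h in NIH/3T3, Gas5 was higher than at 0 h and Snhg5 and Snhg6 were lower, which is 3 of 9 genes called against 52.3% of all genes. From 5 to 48 h 7 of 9 fell in that line and 0 rose, where 31.4% of all genes were called lower. In CGR8, 0 of 10 were called at 48 h against 0 h, where 27.8% of all genes were. There 2, Zfas1 and Gas5, had an unadjusted p under 0.05, and DESeq2 called 1. From 5 to 48 h 1 of 10 fell in CGR8, Snhg8, where 28.6% of all genes were called lower. Leaving the 5 out, 6 of 9, Snhg5 among them, were lower than at 0 h in NIH/3T3 (33% of all genes) and Gas5 was higher (33.9%). In CGR8 Zfas1, Snhg1 and Gas5 were higher (11.2% of all genes) and Snhg5 was lower (14%), so Gas5 and Snhg5 had the same direction in both lines. On the same libraries 8 of 9 fell from 5 to 48 h in NIH/3T3 and 7 of 10 in CGR8, where 36.2% and 29% of all genes were called lower.

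**Figure D2:**
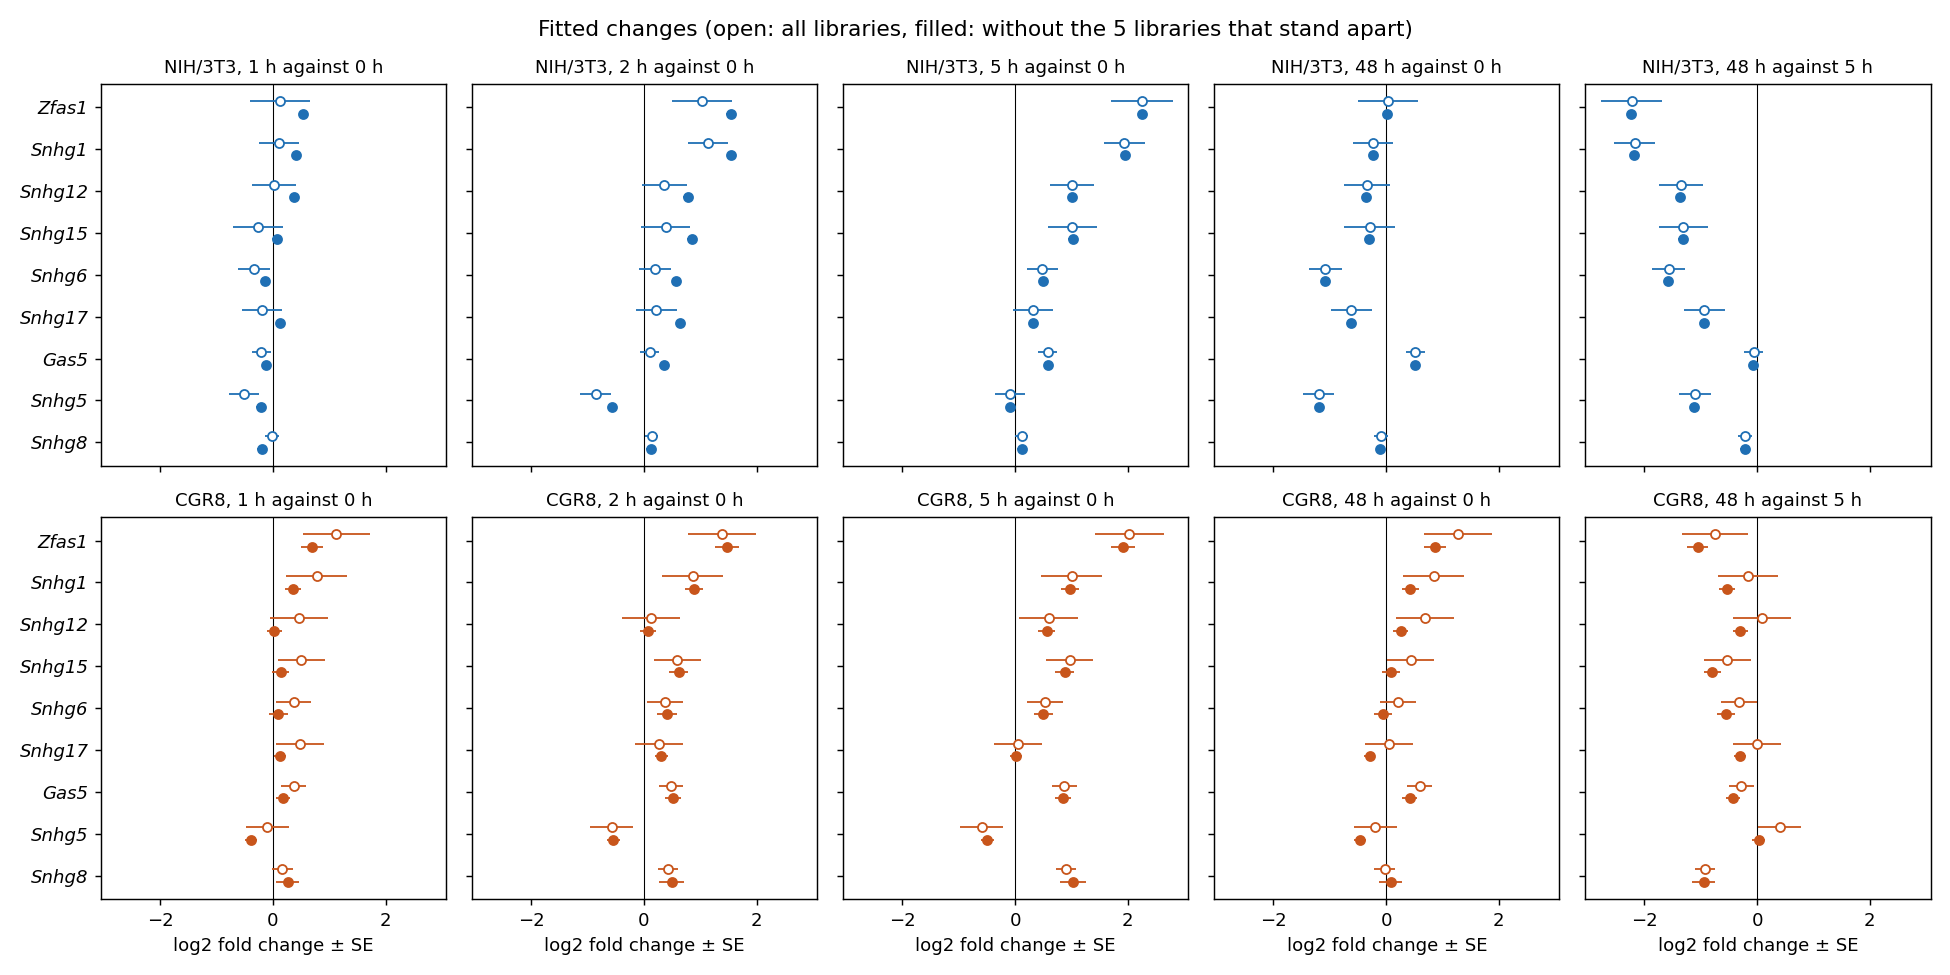
Fitted log2 fold change with its SE for 9 host genes in each comparison within NIH/3T3 (upper row) and CGR8 (lower row), with all libraries (open) and without the 5 that stand apart (filled). Zfas1 and Snhg1 lie far right at 5 h and return in NIH/3T3 from 5 to 48 h by -2.23 and -2.17.

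Zfas1 had the largest change of the host genes. Its annotated span holds snoRNAs of the Snord12 family, and it is transcribed away from Znfx1, a gene for a zinc finger helicase. In NIH/3T3 it was at 37.6, 43.9 and 47.7 CPM at 0 h and at 62.8, 63.9 and, in library C, 13.7 at 1 h. At 2 h it was at 15.5 in library A and at 118 and 131 in the others, and at 5 h it reached 219, 204 and 195 CPM. At 48 h it was back at 41.6, 43.4 and 46.9, inside the range of the untreated libraries. The 5 h libraries thus did not overlap the untreated ones, and the spread at 1 and 2 h came from the libraries that stand apart. The log2 fold change at 5 h was 2.25 ± 0.54 (SE, edgeR adjusted p = 0.00255), and 2.26 ± 0.07 without the 5 libraries. From 5 to 48 h it fell by 2.23 on the log2 scale (SE 0.54, edgeR adjusted p = 0.00185).

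In CGR8, Zfas1 took the same course upward. It was at 49.9, 12.1 and 50.5 CPM at 0 h, at 75.5, 81.9 and 88.3 at 1 h, and at 15.2, 109.8 and 169 at 2 h. At 5 h it was at 233, 81.0 and 145 CPM, and at 48 h at 89.7, 96.0 and 87.0. Libraries 0 h B, 2 h A and 5 h B were the lowest of their groups, and even the lowest of the 5 h libraries was above the highest untreated one. The log2 fold change at 5 h was 2.03 ± 0.61 (SE, edgeR adjusted p = 0.0112), but without library 5 h A it was 1.60 with an adjusted p of 0.0529. Without the 5 libraries it was 1.92 ± 0.21, and the 48 h level then stayed above the untreated one by 0.86 ± 0.20 (edgeR adjusted p = 0.00559).

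Znfx1, on the opposite strand, changed at 2 h in NIH/3T3 by -0.90 ± 0.15 (SE, edgeR adjusted p = 0.00054). Zfas1 was at 1.04 ± 0.53 there with all libraries and was not called (adjusted p = 0.138). At 48 h in that line Znfx1 changed by 0.91 ± 0.15 (adjusted p = 8.84e-05), when Zfas1 was at 0.03 ± 0.53 (adjusted p = 0.971). In CGR8 at 5 h, where Zfas1 was called higher, Znfx1 was at -0.49 ± 0.16 (adjusted p = 0.0201). The transcripts of Zfas1 and Znfx1 overlap in the annotation. The library kit keeps the strand, but the counting step's use of it is not given in the sources used here, so reads in the overlap could have been counted for either gene.

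Snhg1 behaved like Zfas1 in NIH/3T3 and less so in CGR8. In NIH/3T3 it was at 95.9, 95.1 and 99.9 CPM at 0 h, at 125, 135 and 53.8 at 1 h, and at 75.8, 281 and 279.7 at 2 h. At 5 h it reached 359, 396 and 359.9 CPM, above every untreated library, and at 48 h it was at 81.6, 82.9 and 82.8, below every untreated library. The log2 fold change was 1.13 ± 0.35 at 2 h (SE, edgeR adjusted p = 0.0216) and 1.94 ± 0.36 at 5 h (adjusted p = 0.000322). The 2 h call was lost when any of 5 single libraries was left out, with adjusted p-values from 0.0524 to 0.0958. Without the 5 libraries that stand apart the changes were 1.55 ± 0.05 at 2 h and 1.95 ± 0.05 at 5 h, and Snhg1 then fell below its untreated level at 48 h by 0.24 on the log2 scale (SE 0.05, edgeR adjusted p = 0.000458).

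In CGR8, Snhg1 was at 97.6, 25.3 and 108 CPM at 0 h and at 122, 142 and 132 at 1 h. It was at 37.7, 157 and 227 at 2 h, at 219, 63.3 and 184 at 5 h, and at 133, 146 and 136 at 48 h. Library 5 h B lay below 0 h A and 0 h C, so the groups at 0 and 5 h overlapped, and the change of 1.01 ± 0.54 did not pass the test (edgeR adjusted p = 0.131). Without the 5 libraries it was 0.97 ± 0.16 (adjusted p = 0.000302) and the groups were apart. Slc3a2, an amino acid transporter subunit whose start faces that of Snhg1, rose in NIH/3T3 at 5 h by 0.57 ± 0.09 (SE, edgeR adjusted p = 5.4e-05) and was at 0.09 ± 0.10 in CGR8 (adjusted p = 0.478).

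**Figure D3:**
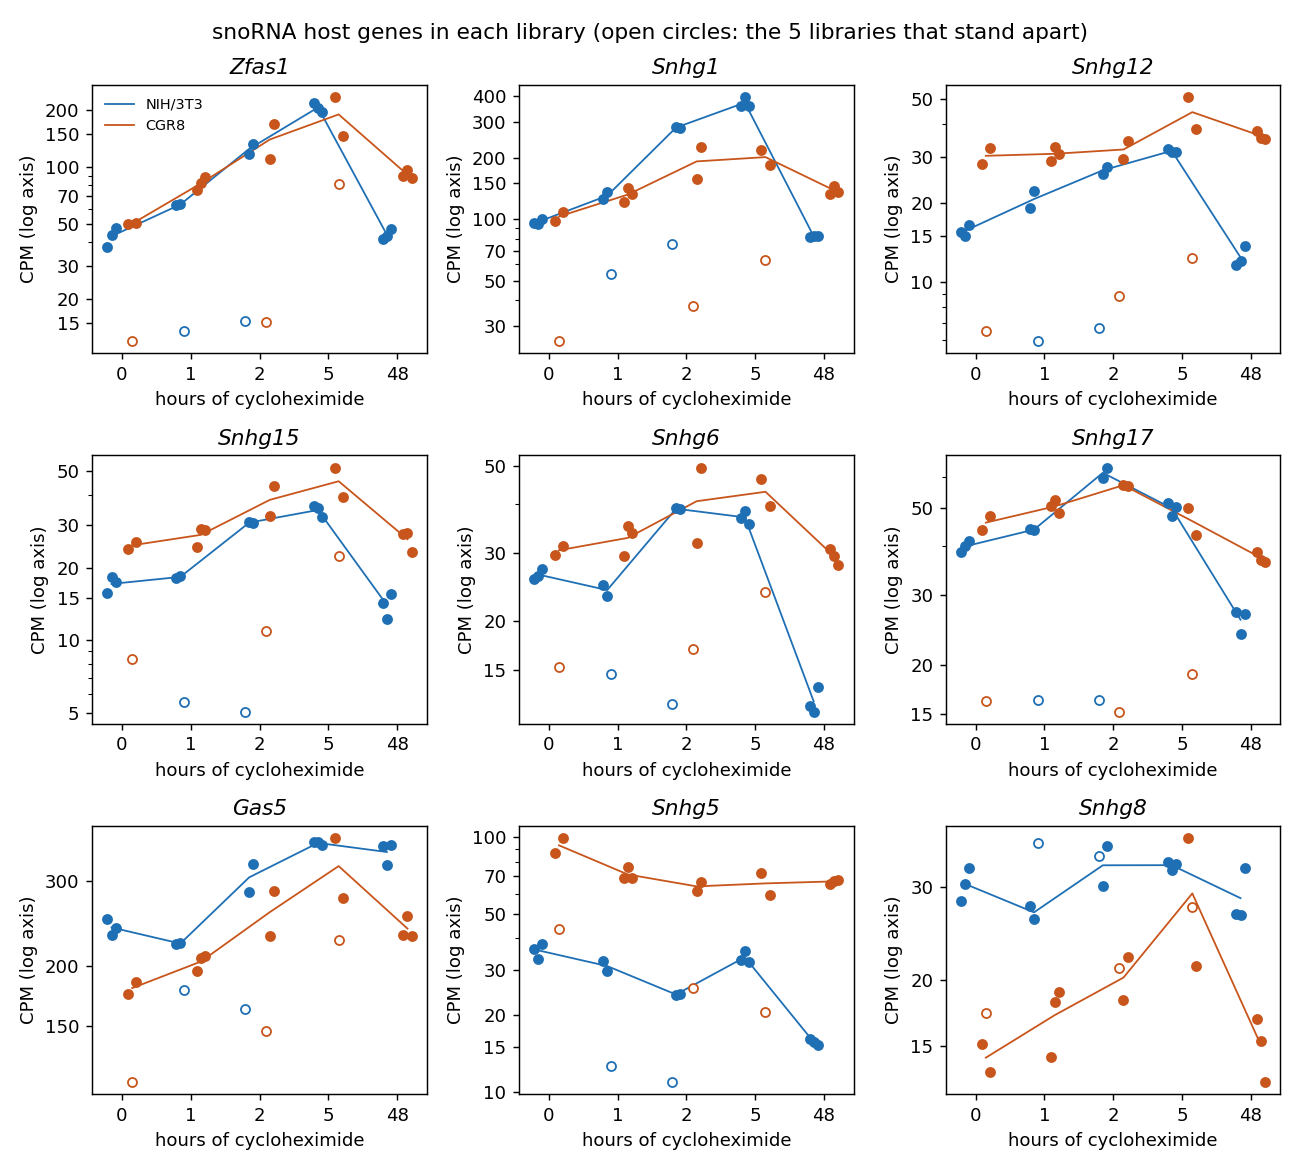
CPM (log axis) of 9 host genes in each library at each time of cycloheximide; lines join the group means without the 5 libraries that stand apart, which are drawn as open circles. Zfas1 reaches 195 to 219 CPM at 5 h in NIH/3T3 and is back at 41.6 to 46.9 at 48 h, while in CGR8 it remains at 87.0 to 96.0.

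Snhg12, Snhg15, Snhg6 and Snhg17 each changed less than Zfas1 at 5 h in the fitted values of both lines, with no test of that difference between genes. Snhg12 hosts Snora16a, Snora44, Snora61 and Snord99. In NIH/3T3 it was at 15.6, 14.9 and 16.5 CPM at 0 h and at 32.2, 31.3 and 31.3 at 5 h, with no overlap, and at 11.6, 12.0 and 13.7 at 48 h. The rise at 5 h was 1.01 ± 0.39 on the log2 scale (SE, edgeR adjusted p = 0.0401), and it was lost on leaving out any 1 of the 6 libraries compared, with adjusted p-values of 0.0735 to 0.0988, and with DESeq2 (0.0736). Without the 5 libraries it was 1.02 ± 0.07 (adjusted p = 9.92e-10). In CGR8 it was at 28.1, 6.50 and 32.5 CPM at 0 h and at 50.7, 12.4 and 38.2 at 5 h, a change of 0.59 ± 0.52 (adjusted p = 0.351), or 0.56 ± 0.15 without the 5 (adjusted p = 0.00606).

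Snhg15, whose annotated span holds Snora9, gave nearly the same picture. In NIH/3T3 it was at 15.8, 18.2 and 17.4 CPM at 0 h and at 36.1, 35.3 and 32.5 at 5 h, again with no overlap. The change of 1.01 ± 0.43 missed the threshold with all libraries (edgeR adjusted p = 0.0617) and passed without the 5, at 1.02 ± 0.08 (adjusted p = 1.18e-09). None of the 5 was a 0 h or 5 h library of NIH/3T3, so the compared libraries were the same and the shared spread was smaller. In CGR8 it was at 24.0, 8.36 and 25.5 CPM at 0 h and at 51.8, 22.3 and 39.2 at 5 h. The values there were 0.97 ± 0.42 (adjusted p = 0.0622) and, without the 5, 0.89 ± 0.17 (adjusted p = 0.000879).

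Snhg6, the host of Snord87, ended below its untreated level in NIH/3T3. It was at 25.7, 26.1 and 27.2 CPM at 0 h, at 36.9, 38.4 and 35.5 at 5 h, and at 12.1, 11.7 and 13.5 at 48 h, 3 ranges that did not overlap. The 5 h change was 0.49 ± 0.28 (SE, edgeR adjusted p = 0.157; 0.49 ± 0.06 without the 5, adjusted p = 9.76e-07), and at 48 h the level was lower than at 0 h by a log2 change of -1.08 ± 0.29 (adjusted p = 0.00534). In CGR8 it was at 29.6, 15.3 and 31.2 CPM at 0 h, at 46.5, 23.8 and 39.5 at 5 h, and at 30.6, 29.4 and 27.9 at 48 h. Its change at 48 h in that line was 0.21 ± 0.32 (adjusted p = 0.671), and the difference from NIH/3T3 missed the threshold with all libraries at 1.27 ± 0.47 (adjusted p = 0.0501). Snhg6 overlaps Mcmdc2 on the other strand, so the limit on strand stated for Zfas1 holds here too.

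Snhg17 was highest at 2 h, where library NIH/3T3 2 h A is set aside. The NIH/3T3 libraries were at 38.7, 39.9 and 41.2 CPM at 0 h, at 16.3, 59.4 and 63.2 at 2 h, at 51.5, 47.7 and 50.4 at 5 h, and at 27.2, 23.9 and 26.9 at 48 h. The other 2 values at 2 h lay above all 3 at 5 h. With all libraries neither change was called, and without the 5 they were 0.63 ± 0.06 at 2 h and 0.33 ± 0.06 at 5 h (edgeR adjusted p = 1.43e-07 and 6.73e-05). In CGR8 the 0 h libraries were at 44.0, 16.2 and 47.7 CPM and the 5 h libraries at 49.9, 18.9 and 42.6, a change of 0.05 ± 0.43 (adjusted p = 0.934).

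Gas5 was called higher at 5 h in both lines, and in NIH/3T3 it was the 1 host gene called higher at 48 h. There it was at 249.6, 231 and 239.5 CPM at 0 h, at 222, 223 and 178 at 1 h, and at 162, 285 and 325 at 2 h. It reached 362, 360.1 and 356 CPM at 5 h and was at 353, 323 and 356 at 48 h, both above every untreated library. The log2 changes were 0.58 ± 0.17 at 5 h (SE, edgeR adjusted p = 0.00902) and 0.52 ± 0.17 at 48 h (adjusted p = 0.0167; 0.0551 without library 0 h B). From 5 to 48 h Gas5 changed by -0.06 ± 0.17 (adjusted p = 0.762).

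In CGR8, Gas5 was at 174, 115 and 185 CPM at 0 h, at 195, 208 and 209.7 at 1 h, and at 147, 231 and 286 at 2 h. It was at 368, 226 and 276 CPM at 5 h and at 232, 254 and 231 at 48 h. The 5 h and 48 h libraries were above every untreated one, the library 5 h B included. The log2 change at 5 h was 0.87 ± 0.22 (SE, edgeR adjusted p = 0.0033), and 0.85 ± 0.14 without the 5 libraries. At 48 h it was 0.59 ± 0.22 (adjusted p = 0.0515), or 0.42 ± 0.13 without the 5 (adjusted p = 0.0304). Zbtb37, which lies head to head with Gas5 and overlaps it on the other strand, rose by 1.45 ± 0.22 at 48 h in NIH/3T3 (adjusted p = 5.3e-05), so the limit on strand stated for Zfas1 holds for Gas5 too.

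Snhg5 was the one host gene called lower than at 0 h before 48 h, and it was called higher than at 0 h at no time in either line, with all libraries or without the 5. In NIH/3T3 it was at 36.4, 33.2 and 38.1 CPM at 0 h, at 10.9, 23.9 and 24.2 at 2 h, at 33.0, 35.8 and 32.4 at 5 h, and at 16.1, 15.7 and 15.2 at 48 h. The 2 h and 48 h libraries lay below every untreated one, and the 5 h libraries overlapped them. The log2 change was -0.86 ± 0.27 at 2 h (SE, edgeR adjusted p = 0.0241), -0.09 ± 0.27 at 5 h (adjusted p = 0.800) and -1.20 ± 0.28 at 48 h (adjusted p = 0.00187). Without library 2 h A alone, the 2 h value was -0.56 with an adjusted p of 0.0850, and without all 5 libraries it was -0.56 ± 0.08 (adjusted p = 5.12e-06).

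In CGR8, Snhg5 was at 86.5, 43.4 and 98.99 CPM at 0 h, at 69.1, 75.9 and 68.8 at 1 h, and at 25.5, 61.4 and 66.6 at 2 h. It was at 72.0, 20.6 and 59.4 CPM at 5 h and at 65.5, 67.4 and 67.9 at 48 h. No change passed the test with all libraries. Without the 5, the changes were -0.54 ± 0.12 at 2 h, -0.49 ± 0.12 at 5 h and -0.46 ± 0.11 at 48 h (edgeR adjusted p = 0.00936, 0.00421 and 0.00668).

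Snhg8 kept apart from the other genes in the libraries that stand apart, while at 5 h in CGR8 it was called higher as Zfas1 and Gas5 were. Its level in NIH/3T3 was 28.2, 30.4 and 32.5 CPM at 0 h and 33.5, 32.3 and 33.1 at 5 h, overlapping ranges with a change of 0.12 ± 0.12 (SE, edgeR adjusted p = 0.445). In CGR8 it was at 15.2, 17.4 and 13.4 CPM at 0 h, at 14.3, 18.2 and 19.0 at 1 h, and at 21.1, 18.4 and 22.1 at 2 h. It rose to 37.1, 27.4 and 21.2 CPM at 5 h and was at 16.9, 15.4 and 12.8 at 48 h. The 5 h libraries lay above every untreated one, and library A was well above the other 2. The log2 change at 5 h was 0.90 ± 0.18 (adjusted p = 0.000674), or 1.03 ± 0.23 without the 5 libraries (adjusted p = 0.00215). From 5 to 48 h it fell by 0.92 (SE 0.18, adjusted p = 0.000436).

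Snhg3 was too low to follow. It had 0 to 8 counts per library in NIH/3T3, at most 0.298 CPM, and 2 to 25 counts in CGR8, at most 0.973 CPM. It overlaps Rcc1 on the same strand, so the counts that it holds also depend on how shared reads were assigned. None of its changes in CGR8 was called (5 h: 0.63 ± 0.56, edgeR adjusted p = 0.355), and at this depth a change of the size seen for Gas5 was not detectable.

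The lines were compared directly in a model over all 30 libraries. With all libraries, 1 of 10 genes differed in its 5 h response, Snhg8, whose change was larger in CGR8 by 0.87 ± 0.23 on the log2 scale (SE, edgeR adjusted p = 0.0102), where 13.3% of all genes were called and the median of all genes was 0.13. Without library CGR8 5 h A the difference was 0.45 with an adjusted p of 0.212, and without CGR8 5 h B it was 0.73 with 0.0546. At 1, 2 and 48 h, 0 of 10 differed, where 0.16%, 2.02% and 21.9% of all genes did, and DESeq2 called 0 at each. An unadjusted p under 0.05 was found for 1 gene at each of these times, Snhg3 at 1 and 2 h and Snhg6 at 48 h.

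When the 5 libraries were left out, the responses parted in more genes and in opposite directions at the late times. At 5 h 5 of 10 differed (21.3% of all genes): the change was smaller in CGR8 for Snhg1 (-1.03 ± 0.15), Snhg12 (-0.52 ± 0.15), Snhg5 (-0.47 ± 0.13) and Snhg17 (-0.37 ± 0.11) and larger for Snhg8 (0.85 ± 0.24). At 48 h 6 of 10 differed (30.3% of all genes), and in each the CGR8 value was higher relative to 0 h, led by Snhg6 (1.04 ± 0.17), Zfas1 (0.84 ± 0.21) and Snhg5 (0.73 ± 0.12). At 1 h 0 of 10 differed (0.235% of all genes), with 3 unadjusted p-values under 0.05 and 0 called by DESeq2. At 2 h Snhg12 (-0.71 ± 0.16) and Snhg1 (-0.66 ± 0.16) differed (2.98% of all genes). The difference for Zfas1 at 5 h, -0.40 ± 0.22, did not pass the test (edgeR adjusted p = 0.208).

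**Figure D4:**
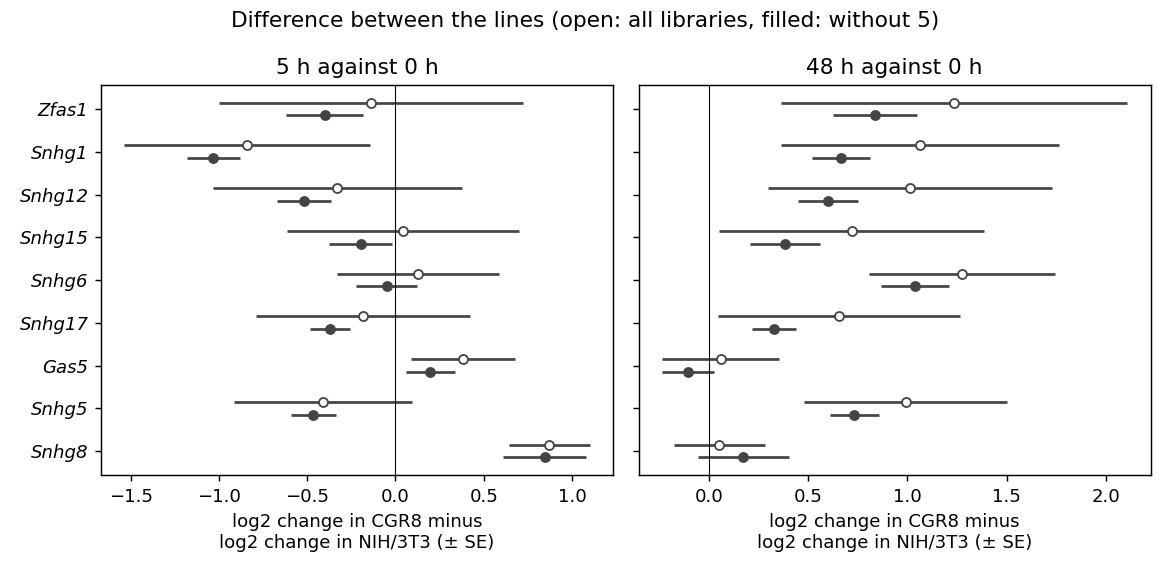
Log2 change in CGR8 minus log2 change in NIH/3T3, with its SE, for 9 host genes at 5 h and at 48 h, with all libraries (open) and without the 5 that stand apart (filled). At 5 h Snhg8 lies on the right (0.87 and 0.85), and Snhg1 on the left (-1.03 without the 5); at 48 h most genes lie on the right.

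In untreated cells 3 of 10 genes differed between the lines, against 79.1% of all genes. Snhg5 was higher in CGR8 by 1.04 ± 0.36 on the log2 scale, while Snhg8 and Gas5 were lower there, at -1.04 ± 0.16 and -0.65 ± 0.21 (SE, edgeR adjusted p = 0.010, 1.64e-06 and 0.0063); the median of all genes was 0.15. Gas5 lost its call without library CGR8 0 h B alone (adjusted p = 0.0669) and Snhg5 without CGR8 0 h C (0.0548). With the 5 left out, 7 of 10 differed (81.5% of all genes), among them Snhg12 at 0.96 ± 0.11 and Snhg5 at 1.38 ± 0.09.

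Other gene lists give the setting for the host genes' median of 0.58 and 0.75 at 5 h in NIH/3T3 and CGR8. Their counts stand beside 24% of all genes called higher and 27.1% lower in NIH/3T3, and 24.9% and 27.2% in CGR8. The lists were not tested as sets, and several share genes: ribosomal proteins recur among the protein-coding hosts, and Nop56, Nop58 and Dkc1 are in 2 lists. Of 7 other long non-coding snoRNA hosts found in the table, 5 were tested in NIH/3T3 with 1 called higher, Snhg9 (0.72 ± 0.27), and 7 in CGR8 with 2 called higher, Snhg9 (1.71 ± 0.46) and Snhg10 (0.86 ± 0.30). Their medians were 0.38 and 0.48. Of 40 protein-coding genes that also carry snoRNAs, 17 rose and 4 fell in NIH/3T3 (median 0.34), and 26 rose and 3 fell in CGR8 (median 0.63). Taf1d, a subunit of the RNA polymerase I factor SL1, rose by 1.02 ± 0.37 in NIH/3T3, where Hspa8, a chaperone, fell by 2.49 (SE 0.17). Nop56 (1.22 ± 0.17), a core protein of C/D snoRNPs, and Rps12 (1.16 ± 0.18), a ribosomal protein, rose in CGR8. Each was called by edgeR.

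Cytosolic ribosomal protein genes moved in the same direction as the hosts: 35 of 77 tested rose in NIH/3T3 and 67 of 77 in CGR8, and 0 fell, with medians of 0.34 and 0.89. On the 25 libraries 57 rose and 4 fell in NIH/3T3, where 31.6% of all genes were called higher and 32.6% lower, and 75 rose in CGR8. Their summed level was 64143 to 71327 CPM at 0 h and 83045 to 89065 at 5 h in NIH/3T3, and 71313 to 93115 and 106300 to 163100 in CGR8, where the higher 0 h value was set by a library that stands apart. The part that this shift in composition had in the hosts' CPM was not tested.

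The proteins of snoRNPs changed less uniformly. Of 12, 5 rose and 2 fell in NIH/3T3, with Nufip1, an assembly factor, at 0.93 ± 0.11 and Nop56 at 0.93 ± 0.12, and 6 rose and 2 fell in CGR8, with Nufip1 at 1.04 ± 0.12. Of 19 factors of nonsense-mediated decay and decapping, 2 rose and 6 fell in NIH/3T3 and 3 rose and 4 fell in CGR8. Pnrc2, which links decay factors to decapping, rose by 0.99 ± 0.11 and Upf3a fell by 0.90 (SE 0.13) in NIH/3T3, while Smg1, the kinase of Upf1, fell by 1.00 (SE 0.35) and Magoh, a protein of the exon junction complex, rose by 0.83 ± 0.11 in CGR8. Their medians were -0.02 and -0.22.

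Another list held long non-coding genes chosen by name as lacking intronic snoRNAs, and it was not checked against the annotation. A gene on it may therefore still host a snoRNA. The medians of this list were 0.34 in NIH/3T3 and -0.37 in CGR8. In NIH/3T3, 2 of 9 tested were higher and 0 lower, and in CGR8 2 of 12 were higher and 2 lower. Neat1 (1.44 ± 0.36) and Epb41l4aos (1.41 ± 0.24) rose in NIH/3T3. In CGR8, Miat (-3.56 ± 0.81) fell and Rpph1 (1.79 ± 0.39), the RNA of ribonuclease P, rose.

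**Figure D5:**
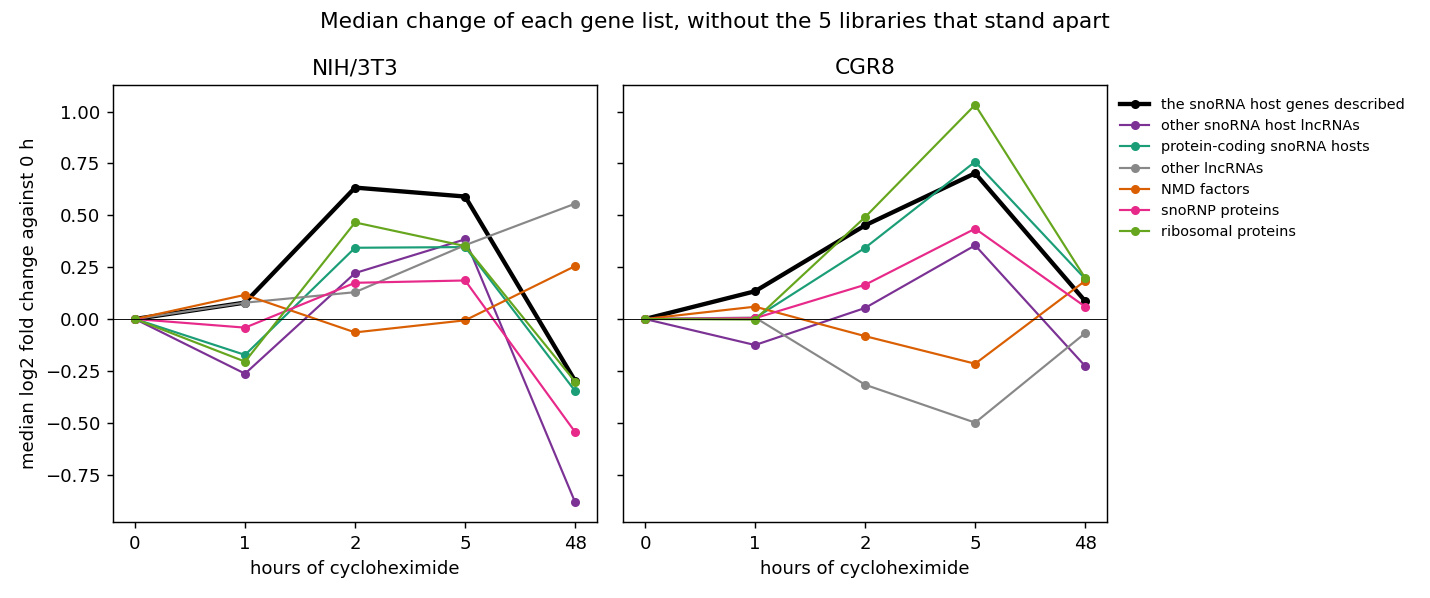
Median log2 fold change against 0 h of the host genes and 6 other gene lists at 1, 2, 5 and 48 h in NIH/3T3 and CGR8, without the 5 libraries that stand apart; 0 h is set to 0. At 5 h the host genes are at 0.59 and 0.70, beside ribosomal proteins at 0.35 and 1.03.

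Within the set, the genes varied together to different degrees. Over the 30 libraries, centred on each line's mean, log2 CPM of a gene correlated with the mean of the other 8 by Pearson's r of 0.971 for Snhg15, 0.955 for Snhg12, 0.945 for Snhg1 and 0.943 for Zfas1. The value was 0.735 for Gas5, 0.639 for Snhg5 and 0.0863 for Snhg8. These are descriptions over libraries that share times and, in 5 cases, the low values described above. Among 7259 other genes with at least 10 CPM in both lines, those most like the mean of the 9 hosts over the 30 libraries were the unnamed ENSMUSG00000120369 (r = 0.974), Taf1d (0.955) and Ssb (0.949), the gene of the La protein. Next came 1110038B12Rik (0.940), Uimc1 (0.932), Pank4 (0.922), 1810032O08Rik (0.921), Gnl3 (0.917), Alkbh1 (0.906) and Cenpk (0.906). The order depended on the 5 libraries: without them Rpl7l1 was first (r = 0.984), which had been at 0.368 with all, and Taf1d was at 0.911.

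The snoRNAs themselves were mostly unseen in these libraries. Of 36 genes annotated as snoRNAs within the spans of the 10 hosts, 32 had a row in the table, and 27 of those were at 0 in every library. The 5 with counts lay in Gas5 and Snhg17, with at most 229 counts in a library for Gm23212 and 192 for Snord78, both in Gas5. Levels of the host RNAs therefore come without a matching readout of their snoRNAs.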

How the data were processed

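Column-purified RNA went into a strand-keeping mRNA library kit, per the labels' protocols. The values deposited by the authors are unnormalized gene counts for 30 libraries. The submitters' processing notes name STAR, DESeq2 and GRCm39; the counting tool, its use of strand and the annotation release are not given in the sources used here. Symbols came from GENCODE M21 on GRCm38 by Ensembl identifier without its version (51880 of 57186 matched, 90.72%), so no gene positions are given from it, and sequences came from RefSeq on GRCm38.p6.

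Counts were fitted with edgeR 4.0.16 in R 4.3.3 (TMM scaling, filterByExpr at min.count 10 and min.total.count 15, glmQLFit and glmQLFTest, Benjamini-Hochberg adjustment over all genes tested, threshold 0.05). Within a line, 1 model over its 15 libraries had a coefficient per time; differences between lines came from 1 model over all 30. Libraries held 18216993 to 30503109 counts, which left Snhg3 at no more than 25 counts in any library. No 2 libraries of a group agreed within sampling noise (lowest chi-square per degree of freedom 1.75). The fits were tested on simulated counts.

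Alternatives were RLE scaling, library totals, DESeq2 1.42.0, no filter, a mean of at least 5 CPM, the compared groups only, a replicate block, and removal of each library's trend on transcript length. Each library of the compared groups was also left out in turn. After seeing the data, voom with sample quality weights (limma 3.58.1) and fits without the 5 libraries that stand apart, those with Malat1 plus Neat1 under 0.5 times their replicates, were added. All 10 host genes are named; of each other list at most the 2 genes with the largest called change at 5 h in each line; and the 10 genes most correlated with the hosts' mean. The nearest protein-coding gene starting close to a host on the other strand is named too. The members, the lists and the promoter feature were chosen with earlier results of these data known.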

Additional observations from a re-analysis of the deposited data

Results flagged for a closer look

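The response of Snhg8 to 5 h of cycloheximide differed between the lines by a test of the difference itself. Its log2 change was larger in CGR8 than in NIH/3T3 by 0.87 ± 0.23 (SE, edgeR adjusted p = 0.0102). All 3 CGR8 libraries at 5 h were above all 3 at 0 h, while the ranges overlapped in NIH/3T3. The value was 0.85 ± 0.24 without the 5 libraries that stand apart (adjusted p = 0.0126). It was 0.45 without CGR8 5 h A (adjusted p = 0.212) and 0.73 without CGR8 5 h B (adjusted p = 0.0546). With the trend on transcript length removed it was 0.55 (adjusted p = 0.0501). With all libraries, the median of this line difference was 0.58 for ribosomal protein genes (11 of 77 called higher, 0 lower). It was 0.48 for protein-coding snoRNA hosts (5 of 40 higher, 2 lower), -0.05 for the 10 host genes and 0.13 for all genes. Of all genes, 13.3% were called in either direction.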

How the results depend on the processing

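At 5 h the called rises of Zfas1 and Gas5 in both lines and of Snhg1 in NIH/3T3 kept their direction under each alternative run, while the number of host genes called moved. With no filter on low counts the numbers were 1, 5, 7 and 5 at 1, 2, 5 and 48 h in NIH/3T3, 2, 5, 8 and 5 in CGR8, 4 from 5 to 48 h in CGR8, 1, 2 and 7 for the line difference at 1, 5 and 48 h, and 5 for untreated cells. With the compared groups only they were 7 and 7 at 5 and 48 h in NIH/3T3, 2 and 2 at 48 h against 0 and 5 h in CGR8, and 3 for the line difference at 48 h. With voom they were 1, 8 and 7 at 1, 2 and 5 h in NIH/3T3, 1, 5 and 2 at 2, 5 and 48 h in CGR8, 3 from 5 to 48 h in CGR8, 5 and 2 for the line difference at 5 and 48 h, and 5 for untreated cells. RLE scaling gave 1 for CGR8 at 48 h and 1 for the line difference at 48 h, a mean of at least 5 CPM gave 1 for the latter, DESeq2 and removal of the length trend each gave 1 for CGR8 at 48 h, and the length trend gave 0 for the line difference at 5 h.

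Without the 5 libraries that stand apart, and then also with RLE scaling, library totals, DESeq2 or the length trend removed, the numbers were 3, 4, 3, 4 and 3 at 1 h, 8 in all 5 at 2 h, 7, 7, 7, 7 and 8 at 5 h, and 7, 7, 7, 7 and 6 at 48 h in NIH/3T3. In CGR8 they were 5, 5, 5, 6 and 6 at 2 h, 8, 8, 7, 8 and 8 at 5 h, 4, 4, 4, 4 and 5 at 48 h, and 7 in all 5 from 5 to 48 h. For the line difference they were 2 in all 5 at 2 h, 5, 4, 5, 5 and 4 at 5 h, and 6, 6, 5, 6 and 6 at 48 h, and for untreated cells 7, 7, 7, 7 and 6. The cause was not tested.

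Leaving out in turn each library of the compared groups, and none of other groups, gave 0 to 5 calls at 2 h in NIH/3T3. There it gave 3 in each fit at 5 h, 2 to 3 at 48 h and 5 to 6 from 5 to 48 h. It gave 0 to 2 at 2 h, 2 to 5 at 5 h and 0 to 1 at 48 h in CGR8, 0 to 1 for the line difference at 5 h and at 48 h, and 2 to 3 for untreated cells. Snhg12 at 5 h in NIH/3T3 was lost in each such fit. Snhg17 from 5 to 48 h in NIH/3T3 was lost when any 1 of the 6 libraries was left out (adjusted p = 0.0547 to 0.0891) and Snhg15 without NIH/3T3 48 h B (0.0545). Snhg5 at 2 h in NIH/3T3 was also lost without 0 h A (0.0614) or 0 h C (0.0716). Other settings also lost Snhg12 at 5 h (library totals 0.0540, DESeq2 0.0736, length trend removed 0.0506), Snhg17 from 5 to 48 h (library totals 0.0632, DESeq2 0.0513) and Snhg15 from 5 to 48 h (length trend removed 0.0595), all in NIH/3T3.

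Snhg17 in CGR8 changed sign with a call at 5 h with voom (-0.80), at 48 h without the 5 libraries with library totals (-0.35), and from 5 to 48 h without the 5 (-0.31, and -0.32, -0.25, -0.32 and -0.67 with RLE, totals, DESeq2 and the length trend removed). Between untreated lines it did so without the 5 (0.21, and 0.22, 0.25 and 0.22 with RLE, totals and DESeq2). Snhg8 from 5 to 48 h in NIH/3T3 did so with the length trend removed (0.23, or 0.21 without the 5).

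With the replicate letter as a replicate block the number called was the same as without it in each comparison, for example 4 at 5 h in NIH/3T3 and 3 in CGR8. For libraries of 1 letter, r between their deviations over 60 pairs had a median of 0.0243, with 13 over 0.1. The values of r varied widely, and no value for pairs of different letters was set beside them. They therefore cannot decide whether libraries of 1 letter were linked. At this depth Snhg3, with 0 to 25 counts per library, could not be followed.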
